A study of Mus musculus with 6 samples.

Results

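The proteasome genes of mouse DN4 thymocytes were examined as all rows of the 6-library expression table whose symbol begins with Psm, followed by a letter from a to g and a number, leaving out names that carry -ps (pseudogenes). The rule found 50 of 41386 genes, after 3 pseudogene rows were left out. Of the 50, 46 encode subunits, activators, an inhibitor or assembly factors of the proteasome that were expressed here, 3 lay below a mean of 1 FPKM (fragments per kilobase of transcript, scaled to the fragments mapped in the library), and Psmc3ip shares the name pattern but encodes a recombination cofactor. Each of the 46 had a mean above 1 FPKM in either group, so none entered the test through its higher group alone. Adult C57BL/6 mice of the genotype Gata3(g/+), which both groups share, gave the DN4 cells, which were divided into GFP-negative and GFP-positive, with 3 libraries of rRNA-depleted total RNA per group. DN4 cells are immature thymocytes that have just passed the checkpoint for the T cell receptor beta chain and stop short of the stage at which both CD4 and CD8 appear. The labels state neither what the g allele does to GATA3 nor whether each library is from a different animal. P-values therefore speak of library-to-library spread, part of which may be technical.

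The proteasome degrades proteins tagged with ubiquitin. Its barrel-shaped core particle is built from outer rings of alpha subunits (Psma genes), which form the gate, and inner rings of beta subunits (Psmb genes), of which Psmb5, Psmb6 and Psmb7 carry the peptide-cutting sites. A regulatory particle caps the barrel: a ring of ATPases (Psmc genes) unfolds substrates, and non-ATPase subunits (Psmd genes) bind ubiquitin and remove it. In blood cells and after interferon, Psmb8, Psmb9 and Psmb10 take the places of Psmb5, Psmb6 and Psmb7 in newly built cores, which are then called immunoproteasomes and favour peptides for MHC class I. Psme genes encode alternative caps and Psmg genes the chaperones that assemble the core.

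Start regions were printed for the members with the largest rise in the beta ring (Psmb5) and in the alpha ring (Psma5), and for the immunoproteasome genes Psmb8 and Psmb9 of the MHC locus, to show the letters near starts of genes that differed together. The windows come from RefSeq on GRCm38.p6 and hold 250 bases before and 50 bases after the annotated start, read 5′ to 3′ on the strand of the gene, at chr14:54617946-54618245 (minus strand, Psmb5), chr3:108256676-108256975 (plus, Psma5), chr17:34197945-34198244 (plus, Psmb8) and chr17:34187281-34187580 (minus, Psmb9). Capitals mark matches on either strand to TGACNNNGC or TGAGNNNGC (the core of the antioxidant response element, through which the factor encoded by Nfe2l1 activates proteasome genes), to the CCAAT box (the letters of its name), to the E-box CACGTG, to the core of the interferon-stimulated response element (2 copies of GAAA with 2 bases between them) or to TTCNNNGAA (the palindrome bound by STAT factors), with overlaps between motifs allowed.
Psmb5: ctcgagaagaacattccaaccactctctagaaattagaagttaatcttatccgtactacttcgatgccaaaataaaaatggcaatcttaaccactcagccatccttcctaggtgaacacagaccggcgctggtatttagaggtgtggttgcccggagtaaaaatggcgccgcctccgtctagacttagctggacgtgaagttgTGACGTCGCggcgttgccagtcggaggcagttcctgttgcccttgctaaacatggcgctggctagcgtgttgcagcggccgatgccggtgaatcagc
Psma5: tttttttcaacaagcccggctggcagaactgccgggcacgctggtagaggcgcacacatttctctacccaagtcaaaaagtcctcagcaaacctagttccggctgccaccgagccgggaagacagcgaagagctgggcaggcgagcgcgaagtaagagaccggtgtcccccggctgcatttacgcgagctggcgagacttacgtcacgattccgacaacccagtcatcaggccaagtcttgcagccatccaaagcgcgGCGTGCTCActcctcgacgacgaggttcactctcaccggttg
Psmb8: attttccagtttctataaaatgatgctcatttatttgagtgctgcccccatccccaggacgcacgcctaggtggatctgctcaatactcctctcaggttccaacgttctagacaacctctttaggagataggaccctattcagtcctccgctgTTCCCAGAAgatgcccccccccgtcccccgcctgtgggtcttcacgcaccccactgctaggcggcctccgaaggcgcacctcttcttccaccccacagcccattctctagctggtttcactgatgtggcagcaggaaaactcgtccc
Psmb9: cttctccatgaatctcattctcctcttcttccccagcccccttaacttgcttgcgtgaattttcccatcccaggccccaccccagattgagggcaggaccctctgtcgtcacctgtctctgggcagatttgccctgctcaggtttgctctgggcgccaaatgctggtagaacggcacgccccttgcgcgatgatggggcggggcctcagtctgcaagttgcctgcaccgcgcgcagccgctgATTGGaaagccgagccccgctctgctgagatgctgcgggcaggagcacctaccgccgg
The Psmb5 window holds an antioxidant response element core at bases 204 to 212, and the Psma5 window one on the other strand at bases 259 to 267, past the start. The Psmb8 window holds the STAT palindrome at bases 154 to 162, and the Psmb9 window a CCAAT box on the other strand at bases 243 to 247. A match is a run of letters, not a shown binding site.

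RefSeq windows were found for 39 of the 46 genes (42 windows), and a gene was counted where any window of it held the motif, both here and among all 27025 genes with a window. The 27025 genes were not limited to genes expressed here, whereas the 39 genes all were, so the shares below are not over like sets. The antioxidant response element core stood in 16 of 39 (41.0%), against 30.8% of all genes. By class it stood in 4 of 7 alpha genes, 3 of 4 beta genes with a window, 2 of 5 ATPase genes, 5 of 12 non-ATPase genes, 1 of 5 activator and inhibitor genes, 1 of 3 assembly genes and 0 of 3 immunoproteasome genes. The interferon core stood in 5 of 39 (12.8%, against 3.99% of all genes): Psmb3, Psmd4, Psmd9, Psme1 and Psmg4. GGGCGG, the GC box, which was not capitalised, stood in 23 of 39 (59.0%, against 38.2%). The CCAAT box stood in 13 of 39 (33.3%, against 41.1%), the E-box in 4 (10.3%, against 8.09%) and the STAT palindrome in 3 (7.69%, against 9.55%). Psmd9, whose level did not pass the test, holds the antioxidant core, the E-box, the interferon core and the GC box. Fold changes of members with and without a motif were not compared.

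Proteasome messages were higher in GFP-positive cells across nearly the whole complex. Of the 46 genes, 40 were higher and 1 was lower at an adjusted p under 0.05 (limma across all genes on log2(FPKM + 0.5), Benjamini-Hochberg adjustment), where 24.4% of all 11465 genes tested were higher, 29.8% lower and 54.2% called in either direction. Every GFP-positive library lay above every GFP-negative library for 43 genes (28.7% of all genes tested), and below for 1 gene (35.1%). The median log2 fold change of the 46 was 0.69, with the middle of the genes between 0.52 and 0.85, beside a median of -0.08 and quartiles of -0.64 and 0.46 over all genes tested. Quantile normalization moved the median of all genes up to 0.06 and turned the split of all calls from 2797 higher and 3419 lower genes to 3494 higher and 2846 lower, with 42 members higher. Calls of 36 of the 41 genes held under all 17 alternatives of the limma fit; the exceptions were Psmd3, Psmd5, Psmd6, Psmd11 and Psme4. The authors' deposited table of 6 libraries called 40 of the 46 higher and 0 lower at a q under 0.05 (23.4% of the genes it tested were higher), 39 of them shared with limma; it called Psmd10 and did not call Psmd6 (q of 0.0978) and Psme4 (q of 0.133).

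**Figure D1:**
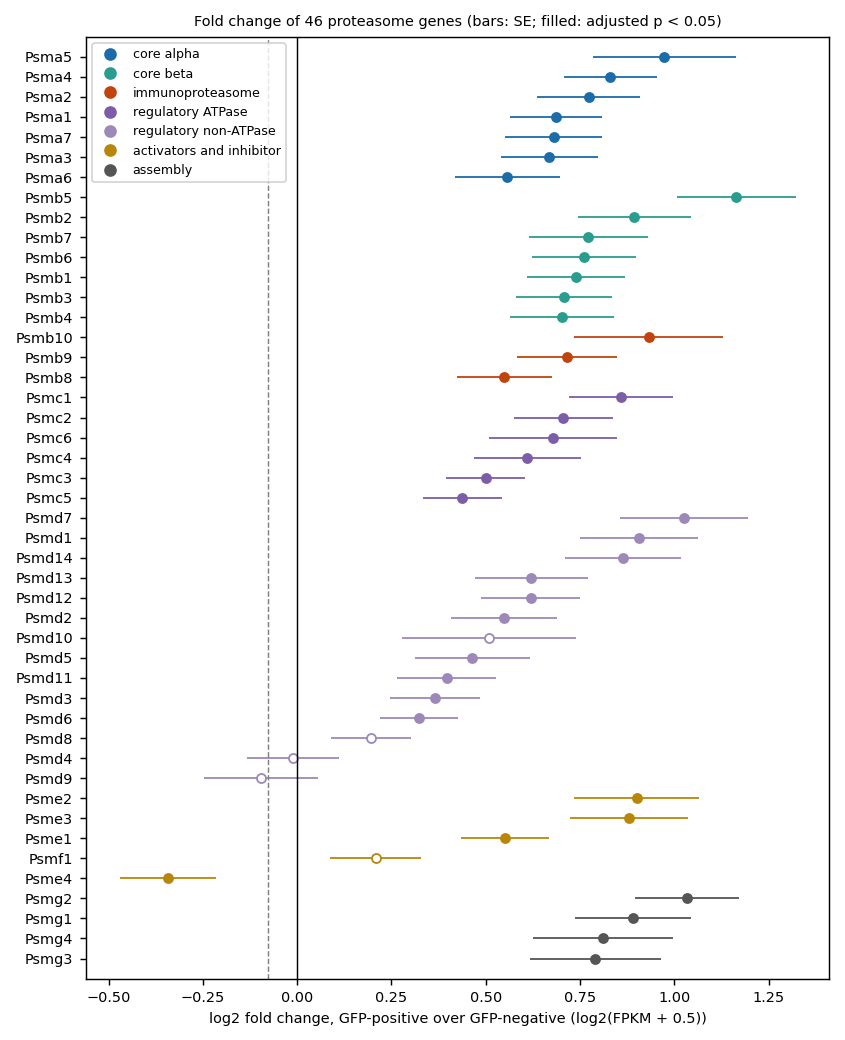
Log2 fold change (GFP-positive over GFP-negative, on log2(FPKM + 0.5)) of each of the 46 proteasome genes, by class and size, with standard errors; filled points passed an adjusted p of 0.05 and the dashed line is the median of all genes tested (-0.08). All core, immunoproteasome, ATPase and assembly genes lie to the right of 0.4, while 4 Psmd genes and Psmf1 are open points and Psme4 alone is filled left of 0.

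The GFP-negative libraries differed among themselves, and other gene groups differed between GFP-negative and GFP-positive cells, some higher and some lower. Within the GFP-negative group, library 1 was the lowest in 41 of the 46 genes (45.3% of all genes tested), and library 3 the highest in 31 (43.5%). GFP-negative library 1 was the lowest of all 6 libraries in 39 genes (31.5%), a count that partly repeats the difference between the groups. The 6 proliferation markers Mki67, Top2a, Ccnb1, Cdk1, Plk1 and Ube2c were all higher in GFP-positive cells; GFP-negative libraries 1 to 3 had summed levels of 183, 200 and 343 FPKM, and the GFP-positive libraries 704 to 750 FPKM. The 5 markers of the double-positive stage, Cd4, Cd8a, Cd8b1, Rag1 and Ccr9, were all lower, with sums of 1889 to 2842 FPKM in GFP-negative and 278 to 291 FPKM in GFP-positive libraries. The part of either list in the proteasome result was not tested, and in such bulk samples fewer cells of a type and less RNA per cell cannot be told apart. All 7 T lineage markers were expressed, with sums of 2265 to 2785 FPKM in GFP-negative and 1804 to 1912 FPKM in GFP-positive libraries; Lck, Cd3d and Cd3e were lower in GFP-positive cells and Ptcra was higher. Cd4 and Cd8a messages stood at means of 230 and 281 FPKM in the GFP-negative cells labelled DN4, against 7.73 and 33.3 FPKM in the GFP-positive cells. Gata3, the gene that the genotype names, was at 20.8 to 24.3 FPKM in GFP-negative and 62.7 to 64.2 FPKM in GFP-positive libraries. Markers of other cell types were low. The 6 myeloid and dendritic markers summed to 3.97 to 5.55 FPKM in GFP-negative and 1.62 to 2.75 FPKM in GFP-positive libraries, and 4 erythroid markers to at most 0.929 FPKM. The 3 B lineage markers summed to 7.10 to 9.62 FPKM in GFP-negative and 2.24 to 3.60 FPKM in GFP-positive libraries, with Pax5 at 0 and nearly all of the sum from Cd79b, which was lower in GFP-positive cells. The 3 MHC class II markers summed to 2.79 to 4.06 FPKM in GFP-negative and 3.75 to 5.27 FPKM in GFP-positive libraries. H2-Ab1 among them was higher in GFP-positive cells, whereas H2-Aa (mean 0.368 FPKM against 0 in every GFP-positive library) and Cd74 (1.08 against 0.373 FPKM) had their higher values in GFP-negative cells and were too low to be tested. The labels give no read totals. The commonest ratio between low FPKM values would put the libraries at 0.863 to 1.28 times the depth of GFP-negative library 1, but only 1.88% to 5.96% of the low genes lay at that ratio, so the depth is known only roughly.

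**Figure D2:**
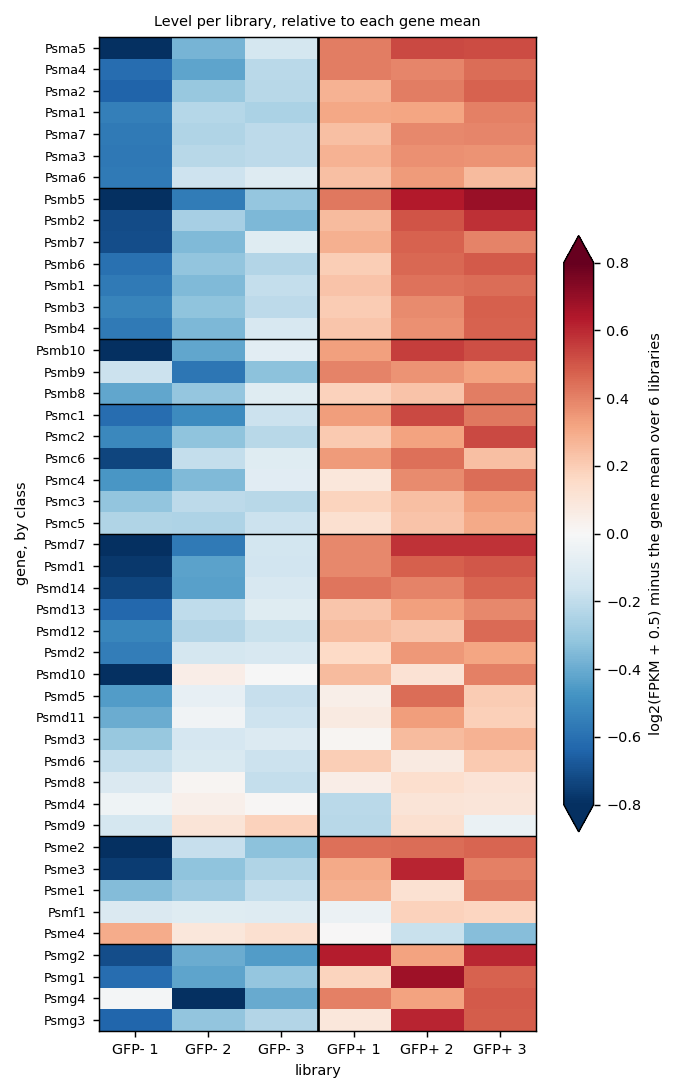
Colour shows log2(FPKM + 0.5) of each gene in each of the 6 libraries minus the mean of that gene over the 6, with genes in rows by class and libraries in columns. GFP-negative library 1 is the bluest column, as in the count of 39 of 46 genes in which it was lowest, and Psme4 is the row with the reverse pattern.

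Where 3 values are given for a group, they are in the order of libraries 1 to 3. The gate-forming alpha ring rose as a whole: all 7 genes were higher, with a median log2 fold change of 0.69 and no overlap between groups for any of them. In GFP-negative cells, Psma6, the member with the highest mean, measured 63.2, 83.4 and 87.1 FPKM, against 111, 119 and 112 FPKM in the GFP-positive libraries. Psma6 had the smallest rise of the ring, 1.46-fold (log2 fold change 0.56 ± 0.14 SE, limma adjusted p = 0.00876). Psma5, the lowest of the ring, stood at 17.6, 26.4 and 31.1 FPKM in GFP-negative and 45.7, 49.8 and 49.6 FPKM in GFP-positive cells, and had the largest rise of the ring, 1.93-fold (0.97 ± 0.19, adjusted p = 0.00262). Psma4 followed, from 40.9 ± 5.62 to 72.6 ± 1.43 FPKM (mean ± SD of 3 libraries; log2 fold change 0.83, limma adjusted p = 0.000715). Psma2, Psma1, Psma7 and Psma3 lay between, with log2 fold changes of 0.67 to 0.77. Each mature core holds equal numbers of the 7 alpha subunits, while their messages spread with an SD of 0.54 between genes on the log2(FPKM + 0.5) scale in GFP-negative and 0.42 in GFP-positive cells. That difference in spread was not tested.

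All 7 constitutive beta genes were higher as well, with a median log2 fold change of 0.76 and no overlap for any. Psmb5, the subunit that cuts after hydrophobic residues, had the largest rise of all 46 genes: 26.8, 33.6 and 40.2 FPKM in GFP-negative cells against 66.9, 77.4 and 80.9 FPKM in GFP-positive cells. The lowest GFP-positive library thus lay well above the highest GFP-negative library, a 2.24-fold difference of the means (log2 fold change 1.16 ± 0.16 SE, limma adjusted p = 0.000468). Psmb2, a subunit without a cutting site, rose from 48.5 ± 7.69 to 90.3 ± 10.5 FPKM (SD, n = 3 each; 0.89, adjusted p = 0.00118). Psmb6, the subunit that cuts after acidic residues and the most abundant beta message in GFP-negative cells among the constitutive genes, rose from 64.0 ± 8.27 to 109 ± 11.7 FPKM (0.76, adjusted p = 0.00175). Psmb7, which cuts after basic residues, rose from 47.3 ± 9.91 to 80.0 ± 5.19 FPKM (0.77, adjusted p = 0.00315). The structural subunits Psmb1, Psmb3 and Psmb4 rose by log2 fold changes of 0.70 to 0.74. Levels within the ring spread less than in the alpha ring, with an SD between genes of 0.29 in GFP-negative and 0.21 in GFP-positive cells on the log2(FPKM + 0.5) scale.

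The 3 immunoproteasome genes were higher in GFP-positive cells too, at log2 fold changes within the range of the constitutive core genes or just below it. Psmb8, on chromosome 17 (34197721 to 34201454 of mm10, plus strand), stood at 66.9, 71.9 and 83.3 FPKM in GFP-negative and 102, 105 and 119 FPKM in GFP-positive cells, which do not overlap (log2 fold change 0.55 ± 0.13 SE, limma adjusted p = 0.00558). Psmb9 (chromosome 17, 34181987 to 34187764, minus strand) stood at 13.7, 10.2 and 12.3 against 20.5, 20.0 and 19.5 FPKM (0.71 ± 0.13, adjusted p = 0.00198). Psmb10 (chromosome 8, 105935735 to 105938444, minus strand) stood at 8.65, 12.4 and 15.7 against 21.0, 24.6 and 24.0 FPKM (0.93 ± 0.20, adjusted p = 0.00383). Per length, Psmb8 was thus the most abundant of the 3 by far, at 74.0 FPKM in GFP-negative cells beside 12.1 for Psmb9 and 12.2 for Psmb10, although the 3 proteins enter immunoproteasome cores in equal numbers.

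Psmb9 and Psmb8 lie in the MHC locus beside Tap1 and Tap2, which encode the peptide transporter of class I loading. Neither neighbour rose: Tap1 stood at 22.7 ± 1.33 and 20.1 ± 1.10 FPKM (SD, n = 3 each; limma adjusted p = 0.219), and Tap2 at 38.9 ± 2.07 and 30.4 ± 5.25 FPKM, a log2 fold change of -0.37 that just passed (adjusted p = 0.0482). Exons of Psmb9 and Tap1 overlap on opposite strands in GENCODE M21, and no label says that fragments were counted by strand, so part of the reads of this pair cannot be told apart. Exons of Psmb8 overlap those of the predicted gene Gm20496 in the same way.

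Each immunoproteasome gene was then set against the constitutive gene whose place its protein takes, as a share of the sum of both FPKM in a library. Psmb8 made up 71.4%, 68.1% and 67.5% of the Psmb8 and Psmb5 sum in GFP-negative libraries 1 to 3 and 60.3%, 57.5% and 59.5% in GFP-positive libraries 1 to 3. Every GFP-positive library lay below every GFP-negative library. The mean share was 69.0% ± 2.09 and 59.1% ± 1.47 (SD, n = 3 each). The log2 ratio of Psmb8 to Psmb5 went from 1.15 to 0.53, a difference of -0.62 (two-sided exact permutation p = 0.10, the smallest that 3 against 3 libraries allow; 0.15 adjusted over the 3 pairs). For Psmb9 and Psmb6 the share of Psmb9 was 20.1%, 13.3% and 14.8% in GFP-negative and 17.7%, 14.9% and 14.3% in GFP-positive libraries, with overlapping groups and a log2 ratio difference of -0.03 (exact permutation p = 0.90), whose sign turned to 0.18 without GFP-negative library 1. For Psmb10 and Psmb7 the share of Psmb10 was 18.9%, 20.6% and 21.6% in GFP-negative and 22.0%, 22.5% and 22.9% in GFP-positive libraries, a log2 ratio difference of 0.18 (exact permutation p = 0.10, adjusted 0.15). The Psmb10 shares of the groups lie close together without overlap, and the difference was 0.06 in the authors' 4-library table. The Psmb8 message thus exceeded that of Psmb5 in every library, whereas Psmb9 and Psmb10 made up 13.3% to 22.9% of their pairs.

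**Figure D3:**
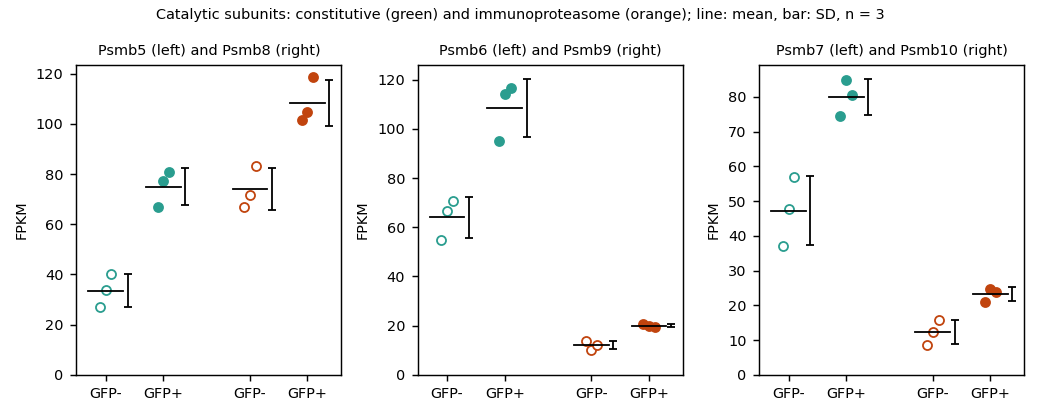
FPKM of the cutting subunits in each library, constitutive genes in green and immunoproteasome genes in orange, GFP-negative libraries as open and GFP-positive libraries as filled points; lines are means and bars the SD over 3 libraries. Psmb5 moves from 33.5 to 75.1 FPKM and Psmb8 from 74.0 to 108 FPKM on average. Psmb9 moves from 12.1 to 20.0 FPKM and Psmb10 from 12.2 to 23.2 FPKM, both far below Psmb6 and Psmb7.

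The 6 ATPases that unfold substrates were all higher, with a median log2 fold change of 0.64 and no overlap between groups. Psmc1 stood at 24.9, 26.8 and 33.8 FPKM in GFP-negative and 48.2, 55.4 and 51.4 FPKM in GFP-positive cells, the largest rise of the ring (1.81-fold, log2 fold change 0.86 ± 0.14 SE, limma adjusted p = 0.000958). Psmc2 rose from 20.2 ± 2.13 to 33.3 ± 3.86 FPKM (SD, n = 3 each; 0.71, adjusted p = 0.00199). Psmc4, the highest of the ring, rose from 43.6 ± 5.98 to 66.8 ± 8.60 FPKM (0.61, adjusted p = 0.00628). Psmc6, Psmc3 and Psmc5 had log2 fold changes of 0.68, 0.50 and 0.44. Exons of Psmc3 overlap those of Slc39a13 on the opposite strand.

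The non-ATPase genes went less uniformly. Of 14 Psmd genes, 10 were higher, 0 lower and 4 did not pass, and the median log2 fold change was 0.49. Over all genes tested, 24.4% were higher and 29.8% lower. The 14 include Psmd5, Psmd9 and Psmd10, chaperones of the regulatory particle that leave the finished complex. Without them, 9 of 11 genes were higher and 2 did not pass, with a median of 0.55. The largest rises were in the deubiquitinating pair of the lid and in the largest scaffold: Psmd7, the partner of the deubiquitinase, stood at 16.1, 19.3 and 25.9 FPKM in GFP-negative and 37.7, 43.3 and 43.3 FPKM in GFP-positive cells, a 2.03-fold difference without overlap (log2 fold change 1.03 ± 0.17 SE, limma adjusted p = 0.00115). Psmd1, the scaffold that docks ubiquitin receptors, rose from 23.1 ± 4.99 to 43.2 ± 1.89 FPKM (SD, n = 3 each; 0.91, adjusted p = 0.00139). Psmd14, the deubiquitinase that removes ubiquitin chains at the entrance, rose from 31.1 ± 6.64 to 56.1 ± 1.30 FPKM (0.86, adjusted p = 0.00157). Psmd13 and Psmd12, lid subunits, each had a log2 fold change of 0.62, and Psmd2, the other large scaffold, 0.55. Psmd3, the most abundant Psmd message on average, stood at 48.1 ± 3.46 and 62.2 ± 6.11 FPKM (0.36, adjusted p = 0.0286), Psmd11 at 0.40 and Psmd6 at 0.32; these calls were lost under 6, 7 and 5 of 17 alternatives (adjusted p up to 0.121).

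Psmd4 and Psmd8 of the regulatory particle did not pass the test, and a difference between them and the other subunits was not tested. Psmd4, a ubiquitin receptor, stood at 39.7, 41.8 and 40.8 FPKM in GFP-negative and 34.9, 43.6 and 43.6 FPKM in GFP-positive cells. Its groups overlapped, and the log2 difference of -0.01 (SE 0.12, limma adjusted p = 0.949) ran from -0.06 to 0.10 over the alternatives. Psmd8, a lid subunit, stood at 46.2, 50.7 and 43.9 against 52.1, 55.1 and 54.1 FPKM, without overlap but below the threshold (0.20 ± 0.11, adjusted p = 0.147). The Psm-named chaperones of the regulatory particle, which leave the finished complex, are Psmd5, Psmd9 and Psmd10. Psmd5 rose from 13.0 ± 1.77 to 18.1 ± 2.65 FPKM (SD, n = 3 each; 0.46, adjusted p = 0.0281, lost under 4 alternatives). Psmd9 stood at 7.68, 9.19 and 9.74 against 7.25, 9.38 and 8.20 FPKM, with overlapping groups (-0.10 ± 0.15, adjusted p = 0.616). Psmd10, also known as gankyrin, stood at 4.05, 7.79 and 7.48 against 9.01, 8.15 and 10.1 FPKM, low in GFP-negative library 1 (0.51 ± 0.23, adjusted p = 0.0918). Its log2 fold change was 0.23 without that library, and it was past the threshold with quantile normalization (0.65).

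**Figure D4:**
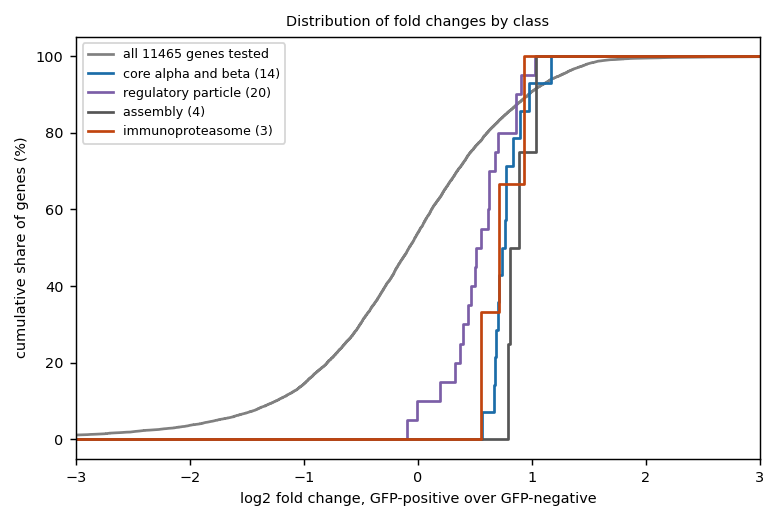
Cumulative share of genes (percent) against log2 fold change, GFP-positive over GFP-negative, for all 11465 genes tested (grey) and for 4 classes of proteasome genes. The 14 core genes rise steeply between 0.56 and 1.16 and the 20 regulatory genes over a wider range from -0.10 to 1.03, with medians of 0.75 and 0.53 beside -0.08 for all genes. The 20 include the chaperones Psmd5, Psmd9 and Psmd10. The low end is Psmd9, and the lowest gene that is not a chaperone is Psmd4 at -0.01.

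Of the activator genes, 3 were higher in GFP-positive cells and 1 was lower. Psme1 and Psme2, whose proteins together form the interferon-inducible cap of the core, were both higher: Psme1 stood at 40.7, 42.4 and 45.4 FPKM in GFP-negative and 63.4, 56.5 and 69.6 FPKM in GFP-positive cells (log2 fold change 0.55 ± 0.12 SE, limma adjusted p = 0.00387), and Psme2 at 18.4, 29.3 and 26.5 against 45.5, 45.7 and 46.2 FPKM (0.90 ± 0.17, adjusted p = 0.00187). Psme3, the nuclear activator that forms a cap of its own, stood at 31.9, 43.3 and 45.7 against 67.1, 83.0 and 71.9 FPKM (0.88 ± 0.16, adjusted p = 0.00158). None of the 3 overlapped between groups. Psme4, a large single-chain nuclear activator known for its part in spermatogenesis in mice, was the only member called lower in GFP-positive cells. It stood at 28.3, 24.4 and 25.1 against 23.0, 20.2 and 18.0 FPKM, which do not overlap (-0.34 ± 0.13, adjusted p = 0.0476), but the call was lost under 11 of 17 alternatives (log2 fold change -0.43 to -0.26, adjusted p 0.0298 to 0.167). Psmf1, which inhibits the core in vitro, stood at 12.2, 12.4 and 12.3 against 12.8, 15.1 and 15.0 FPKM (0.21 ± 0.12, adjusted p = 0.170) and passed with quantile normalization and upper quartile scaling (0.29 and 0.27).

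All 4 Psmg genes, whose proteins pair up to order the alpha ring during assembly, were higher, with a median log2 fold change of 0.85 and levels below those of most subunits. Psmg2 stood at 10.2, 12.8 and 12.4 FPKM in GFP-negative and 26.5, 21.4 and 26.0 FPKM in GFP-positive cells (2.09-fold, 1.03 ± 0.14 SE, limma adjusted p = 0.000452). Its partner Psmg1 stood at 12.0, 13.7 and 14.9 against 21.1, 30.1 and 26.0 FPKM (0.89 ± 0.15, adjusted p = 0.00136). No library of either gene crossed between groups. Psmg3 stood at 6.46, 8.15 and 8.65 against 11.0, 16.0 and 14.6 FPKM (0.79 ± 0.17, adjusted p = 0.00467). Its partner Psmg4 stood at 18.7, 10.6 and 14.1 against 25.1, 23.7 and 26.7 FPKM (0.81 ± 0.19, adjusted p = 0.00582), and was, unlike most members, highest among GFP-negative cells in library 1.

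Tissue-specific members were at the floor of the data. Psmb11, the beta subunit of the thymoproteasome that cortical thymic epithelial cells use, lies next to Psmb5 on chromosome 14 and was at 0.0263 to 0.153 FPKM over the 6 libraries. Of 7 thymic epithelium markers, 3 (Foxn1, Krt5 and Enpep) were listed at 0 in every library, and the sum of the 7 was 5.77 to 8.48 FPKM, mostly from Ly75 and Epcam. Psma8, an alpha subunit of the testis, was at 0.0801 to 0.351 FPKM. Psme2b, a copy of Psme2, was listed at 0 in 2 GFP-negative libraries and reached 0.766 FPKM; reads of Psme2 and its copy cannot be fully separated. None of these 3 was tested. Psmc3ip, the recombination cofactor with a proteasome-like name, stood at 7.44 ± 1.16 and 10.3 ± 0.669 FPKM (mean ± SD of 3 libraries; log2 fold change 0.45, limma adjusted p = 0.0271, lost under 6 alternatives).

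Genes of the same pathway without a Psm name were compared as a list of 28 cofactors and ubiquitin genes, of which 27 were found by symbol and tested. Of these 15 were higher, 1 lower and 11 did not pass, where 24.4% of all genes tested were higher and 29.8% lower. The median log2 fold change was 0.35, and 8 of the 16 calls held under all alternatives. Pomp, the maturation chaperone of the core that is consumed in each assembly, stood at 31.8, 45.9 and 45.3 FPKM in GFP-negative and 60.1, 60.1 and 69.1 FPKM in GFP-positive cells (0.63 ± 0.16 SE, limma adjusted p = 0.00831). Adrm1 and Shfm1, subunits of the regulatory particle, had log2 fold changes of 0.35 and 0.45, calls lost under 8 and 7 alternatives; Adrm1 was at 0.21 in the 4-library table. The largest rises were in Txnl1, a thioredoxin-like protein bound to the regulatory particle (1.04, adjusted p = 0.000602), Rps27a, a ubiquitin gene fused to a ribosomal protein (1.01, adjusted p = 0.00057), and Rad23b, a shuttle for ubiquitinated proteins (0.93, adjusted p = 0.00199). With quantile normalization Rps27a was at 0.39, still past the threshold. The ubiquitin gene Ubb was higher as well (0.41, adjusted p = 0.0154), a call lost under 4 alternatives, among them quantile normalization (0.06).

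The genes of 2 transcription factors of the pathway did not pass the test. Nfe2l1, which encodes the activator of proteasome genes named above, stood at 13.9, 15.4 and 11.7 FPKM in GFP-negative and 12.5, 12.2 and 10.9 FPKM in GFP-positive cells, with overlapping groups (log2 fold change -0.19 ± 0.14 SE, limma adjusted p = 0.269). Nfe2l2, its relative in the oxidative stress response, stood at 15.1 ± 0.762 and 15.6 ± 1.09 FPKM (SD, n = 3 each; 0.04, adjusted p = 0.773). The factor encoded by Nfe2l1 is known to be controlled largely at the protein level, which RNA does not measure. Ddi2, the protease that activates it, had a log2 fold change of 0.43 (adjusted p = 0.0119, lost under 2 alternatives) and Ngly1, the enzyme that removes its sugars, -0.08 (adjusted p = 0.580). Ufd1l, a partner of the segregase Vcp, was the gene of this list that was lower, at 24.1, 30.5 and 28.1 against 21.0, 22.7 and 21.8 FPKM (-0.32, adjusted p = 0.0489, lost under 9 alternatives), and Vcp itself was higher (0.34, adjusted p = 0.0328, lost under 8).

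**Figure D5:**
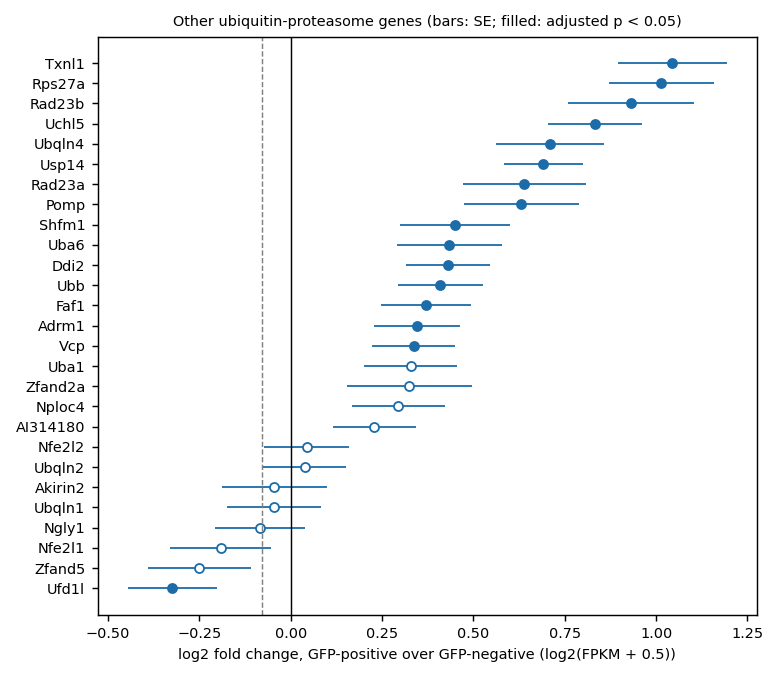
Log2 fold change (GFP-positive over GFP-negative, on log2(FPKM + 0.5)) of the 27 tested cofactor and ubiquitin genes with standard errors; filled points passed an adjusted p of 0.05 and the dashed line is the median of all genes tested. The points run from -0.32 for Ufd1l to 1.04 for Txnl1, with Nfe2l1 and Nfe2l2 near 0.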

How the data were processed

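RNA of GFP-negative and GFP-positive DN4 thymocytes (3 libraries each) was depleted of ribosomal RNA, per the labels' protocols. The authors deposited FPKM values per library from a run over 6 libraries and a run over 4 (library 1 of each group left out), together with q-values per gene, per the file headers. TopHat2, Cuffdiff and mm10 are named without versions, per the submitters' processing notes; the annotation release and strand setting were not given. FPKM are not counts, so no count test was run and no counting intervals are given.

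The 6-library table was used. Genes of status HIDATA (24) or a mean FPKM under 1 were left out, and log2(FPKM + 0.5) was fitted in limma 3.58.1 (R 4.3.3; lmFit, eBayes with trend and robust), GFP-positive against GFP-negative, with Benjamini-Hochberg adjustment over 11465 genes and a threshold of 0.05. Fold changes on this scale understate those of low genes. Ratios of genes were compared by two-sided exact permutation tests (SciPy 1.17.1). Exon overlap and positions came from GENCODE M21, where all 50 members matched by identifier; 12 share exons with a gene of the opposite strand. Relative depth was the commonest ratio to GFP-negative library 1 among genes of at least 1500 exonic bp under 0.3 FPKM. The fit was tested on 5 simulated data sets of 11465 genes, with 200 genes changed in each. It recovered 12.5% of 1.5-fold, 54.7% of 2-fold and 86.7% of 4-fold changes, and 4.85% of its calls were false. In the data 54.2% of genes were called, so the share recovered there may differ. A gene that did not pass may still have changed.

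The members and lists were chosen with earlier results of these data known. The text names the cutting subunits and their immunoproteasome counterparts, the Psme, Psmf and Psmg genes, the members with the largest changes and the highest level in each other class, and members against the trend of their class; of the cofactors, those with the largest changes, the chaperone Pomp, the subunits Adrm1 and Shfm1, and both Nfe2l genes. A few genes first placed on the cofactor and marker lists were taken off them and are not analysed here; counts are over the lists without them. Cofactors named beyond these were chosen after their values were seen. Other settings tried were the 4-library table, each library left out, a pseudocount of 0.1 or 1, a minimum of 5 FPKM or none, scaling by quantiles or the upper quartile, plain eBayes, the replicate number as a block, and genes of status OK alone; the 4 libraries within the 6-library table and the authors' q-values were added after seeing the data.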

Additional observations from a re-analysis of the deposited data

How the results depend on the processing

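Over 18 alternatives, the authors' q-values included, 36 to 42 of the 46 proteasome genes were higher, and 36 to 40 with any library left out. The number lower was 0 in place of 1 (Psme4) without the filter, with quantile or upper quartile scaling, with plain eBayes, in the 4-library table, in the same 4 libraries of the 6-library table and by the authors' q-values, and 0 to 1 with a library left out. The median of all genes tested was 0.057 with quantile scaling in place of -0.08. Class medians of the log2 fold change kept their sign. With a library left out they ran from 0.51 to 0.74 for the ATPases, from 0.33 to 0.58 for the non-ATPase genes and from 0.81 to 0.96 for the assembly genes, and the median of activators and inhibitor was 0.44 in the 4-library table. The log2 ratio of Psmb9 to Psmb6 had no stable sign: its difference was 0.050 in the 4-library table and -0.17 to 0.18 with a library left out. That of Psmb8 to Psmb5 stayed between -0.68 and -0.54 with a library left out. The cause of these shifts was not tested. The labels do not say that equal replicate numbers share an animal or day, so the numbers were not taken as pairs. Same-numbered libraries deviated together by correlations of 0.09, -0.02 and 0.06, which cannot settle the question with 3 libraries per group. With the replicate block 40 members were higher. With FPKM alone, depth cannot be turned into errors, and the members below 1 FPKM cannot be compared.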
